A study of Mus musculus with 48 samples.

Results

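The genes described here are those of the ATF4 response to amino acid shortage together with the cytosolic tRNA synthetases. They were taken from a list of 44 symbols, which was chosen with earlier results of these data known. Of these, 40 were in the expression tables, among 11313 genes in all: 20 tRNA synthetases and 20 other genes linked to ATF4. The other 20 comprised 7 genes for transcription factors and stress feedback, 8 for enzymes of amino acid and folate metabolism and 5 for amino acid transporters. Ddit3, Cebpb, Vldlr and Stc2 were on the list but not analysed here. All 40 genes passed the filter on low values in every layer of the data.

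RNA came from NIH 3T3 cells, an established line of mouse fibroblasts. A stable line with a control hairpin (shCTRL) was compared with a stable line carrying a hairpin against Bmal1 (shBmal1), a core activator of the circadian clock that the tables call Arntl. Both lines were exposed to 50% horse serum for 2 h, which resets the clocks of cultured cells, and collected every 2 h from 24 to 46 h. Each culture gave 1 library of total RNA and 1 of RNA labelled with 4-thiouridine (4sU), a uridine analogue that marks newly made RNA, so there were 4 groups of 12 libraries. All groups therefore shared the serum treatment and a hairpin vector. Each hairpin was represented by 1 stable line and each time point by 1 culture, so every p-value reflects only how single libraries scatter about a fitted curve. Differences between the hairpins cannot be told apart from differences between these stable lines. In bulk RNA, fewer cells of a kind and less RNA per cell cannot be told apart.

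When an amino acid runs short, uncharged tRNA activates the kinase GCN2, which phosphorylates the translation factor eIF2. General translation then slows while the Atf4 mRNA is translated better, and ATF4 binds composite C/EBP-ATF elements near genes for amino acid synthesis, amino acid uptake and tRNA charging. The synthetases join each amino acid to its tRNA. Other stresses reach eIF2 through other kinases, and the whole is known as the integrated stress response.

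The composite element is usually written TGATGNAA, and it is shown first because it is the element ATF4 is known to bind. Promoters were read from RefSeq (build GRCm38.p6) as 250 bases before to 50 bases after the start site of each promoter entry. They were searched for these 8 letters on both strands, and no other motif was searched. An entry existed for 31 of the 40 genes, and 10 of the 31 (32.26%) held a match. By comparison, 223 of the 8641 genes of the tables with an entry held one (2.58%), as did 1304 of all 32851 promoters (3.97%). The matches fell in 5 of 13 synthetases and 5 of 18 other genes. Slc7a5, Slc1a5, Cars, Hars, Lars, Nars, Rars, Vars and Wars had no entry. A match is only an occurrence of these letters. Windows of 24 bases around each match follow, on the strand of the gene. The match is in capitals, read as its reverse complement where the element lies on the other strand. Its first base is counted from the start site of the promoter entry. For Aars and Yars that site lies inside the gene's span, which begins at chr8:111027778 and chr4:129189734.
Nupr1, chr7:126625565-126625588, minus strand, match -110 from the start: gggccagaTTGCATCAgacagggc
Trib3, chr2:152344031-152344054, minus strand, match 15 from the start: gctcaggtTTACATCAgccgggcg
Chac1, chr2:119351041-119351064, plus strand, match -193 from the start: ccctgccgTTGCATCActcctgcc
Asns, chr6:7693217-7693240, minus strand, match -23 from the start: cagccacaTGATGAAActtcccgc
Pycr1, chr11:120643836-120643859, minus strand, match -103 from the start: cctgtgtaTGATGCAAtgcacaag
Aars, chr8:111033722-111033745, plus strand, match -112 from the start: cttgagcaTTGCATCAgccgagcc
Aars, chr8:111033843-111033866, plus strand, match 10 from the start: gggtcactTTTCATCAgagcgctc
Gars, chr6:55037963-55037986, plus strand, match -30 from the start: ctgcgctaTTTCATCAtgcaccgg
Iars, chr13:49682129-49682152, plus strand, match 8 from the start: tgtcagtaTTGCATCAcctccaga
Tars, chr15:11399658-11399681, minus strand, match -15 from the start: gagtcccgTTGCATCAgctggtta
Yars, chr4:129189898-129189921, plus strand, match 4 from the start: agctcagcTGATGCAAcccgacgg
Chac1 and Aars are printed with the whole 250 bases before the start, again with the match in capitals. Chac1 had the largest total RNA fold in a single culture described below. Aars was the synthetase with the largest difference between the lines, and its second match lies after the start and so outside this stretch.
Chac1, chr2:119350992-119351241, plus strand: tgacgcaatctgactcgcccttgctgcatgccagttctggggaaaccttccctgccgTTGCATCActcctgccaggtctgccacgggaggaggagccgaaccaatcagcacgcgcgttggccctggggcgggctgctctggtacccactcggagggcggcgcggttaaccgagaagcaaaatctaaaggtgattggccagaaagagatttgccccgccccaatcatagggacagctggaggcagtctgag
Aars, chr8:111033592-111033841, plus strand: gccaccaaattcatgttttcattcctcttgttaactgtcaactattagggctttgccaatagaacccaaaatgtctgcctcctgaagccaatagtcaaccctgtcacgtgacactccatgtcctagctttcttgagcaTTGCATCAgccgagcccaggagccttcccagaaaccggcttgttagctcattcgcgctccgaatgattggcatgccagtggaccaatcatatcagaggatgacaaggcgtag

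The groups were sequenced to similar depth, 48873013 to 76260143 reads per library as recovered from the exon values. At least 442 reads lay behind each gene's total RNA exon value in each library, and at least 96 behind each 4sU intron value. Arntl itself was lower in shBmal1 total RNA exons, by 0.92 on the log2 scale ± 0.0810 (SE) (adjusted p = 3.59e-09 by limma). In 4sU exons it differed by -0.72. Its introns were instead higher in shBmal1, by 0.57 in 4sU RNA and 0.51 in total RNA. Each of these also had an adjusted p under 0.05 by limma. All 10 fibroblast markers were measured, with a summed level of 6013 to 6826 RPKM in shCTRL and 4938 to 5912 in shBmal1. At an adjusted p under 0.05 by limma, 7 of the 10 were lower in shBmal1 total RNA and 3 were higher (33.1% and 34.4% of all genes). Of the 7, 6 were lower by at least 0.5 on the log2 scale (8.29% of all genes), and the median of the 10 was -0.67. Pdgfra fell most, from a median of 72.0 to 22.7. Of the epithelial markers 1 of 6 was in the tables, Krt14, at 2.18 to 4.44 RPKM in shCTRL and 7.20 to 13.3 in shBmal1. The 3 of 6 leukocyte markers measured, Cd68, Lyz2 and Cd14, summed to 13.4 to 20.5 and 16.9 to 23.2, the 1 of 4 endothelial markers (Cdh5) stayed at or under 0.872, and none of the 4 neural markers was in the tables. The part of these markers in the results below was not tested.

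Some libraries stood apart. Short genes were low relative to long ones in the shBmal1 culture of 34 h: with genes ranked by span and divided into 4 equal classes, the median log2 deviation of the shortest class minus that of the longest was -0.40 in total RNA exons and -0.49 in 4sU introns. It was high in shBmal1 at 28 h (0.30 in total RNA exons) and 24 h (0.38 in 4sU introns) and in shCTRL at 30 h (0.22 and 0.44). The genes described here had a median span of 17980.5 bases, against 22968 over all genes of the tables. The shBmal1 culture of 46 h stood apart for these very genes, so each result below is given with and without that time point where it matters.

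Total RNA exon signal served as the level of the RNA, and 4sU intron signal as a measure of newly made precursor RNA. Values are RPKM, reads per kilobase of feature corrected for library depth, scaled so that the typical gene is equal across libraries. Differences are log2 of shBmal1 over shCTRL after adding 0.1 (exons) or 0.02 (introns), which understates changes of low genes. A gene was called at an adjusted p under 0.05 by limma over all genes tested. In total RNA, 26 of the 40 genes were higher in shBmal1 and 4 were lower, against 34.4% and 33.1% of the 10906 genes tested. With a difference of at least 0.5 also required, 7 were higher and none lower (5.14% and 8.29% of all genes). The median difference was 0.28, against 0.0059 over all genes. In 4sU introns 26 genes were higher and none lower (22.1% and 22.3% of 10494 genes), with 6 higher and none lower by at least 0.5 (2.82% and 2.49%) and a median of 0.24. Psph, which is among these 6, had unequal intron lengths in the lines, described with that gene. None of the 40 was lower at an unadjusted p under 0.05 either. This direction of the 4sU intron values holds only after scaling. With intron RPKM as deposited 5 genes were higher and 23 lower, while the median of all genes shifted to -0.45. Deposited intron values of the shBmal1 4sU libraries rest on read totals 1.35 to 1.39 times their exon totals. In the other groups intron and exon totals were equal. Without 46 h, 25 genes were higher and 4 lower in total RNA, where 65.4% of all genes were called in either direction. In 4sU introns 26 were then higher and 3 lower (42.7% of all genes in either direction), the lower ones being Slc7a5, Slc1a5 and Cebpg.

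**Figure D1:**
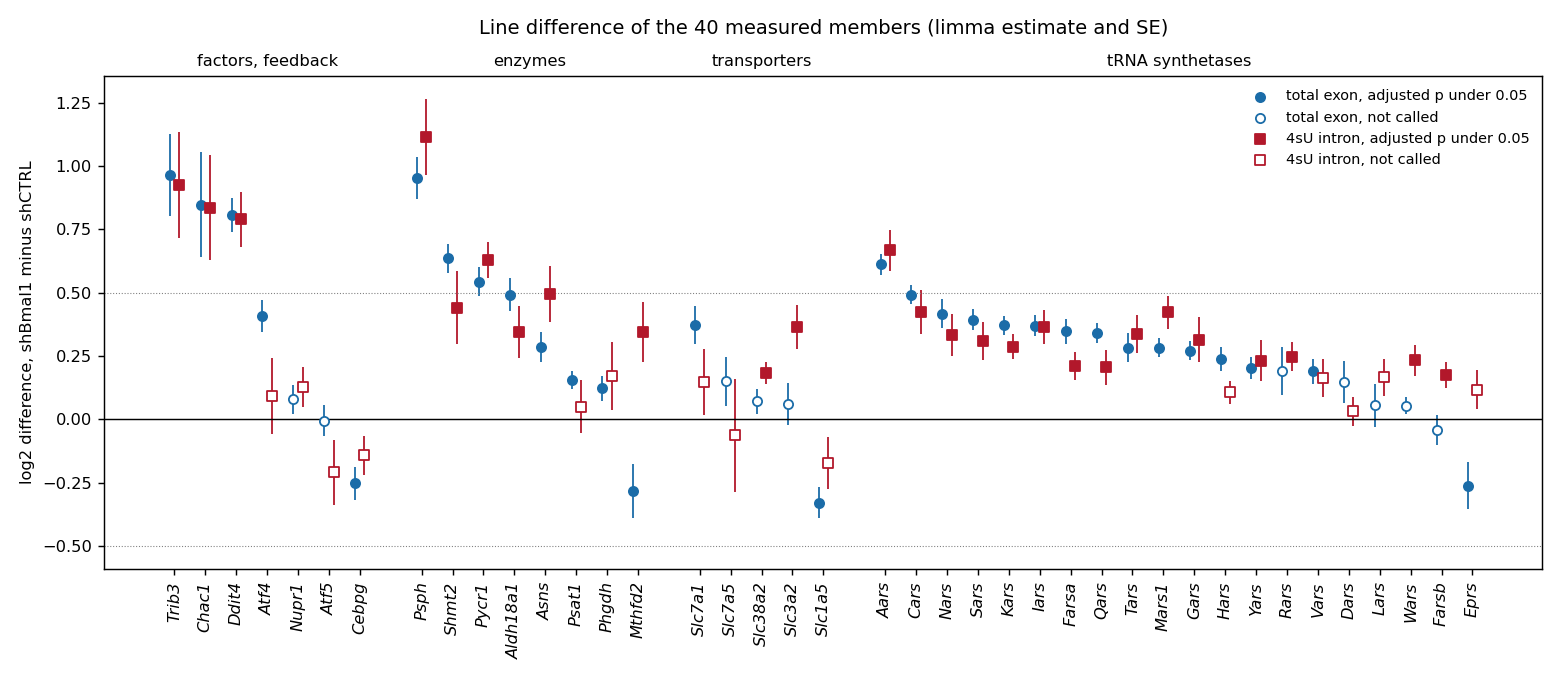
Difference between the lines for the 40 genes, as log2 of shBmal1 over shCTRL ± SE from limma, grouped by role. Circles are total RNA exons, squares 4sU introns, filled symbols have an adjusted p under 0.05, and dotted lines mark 0.5 in either direction. Most symbols lie above 0 in both layers, with Trib3 (0.96) and Psph (0.95) highest in total RNA exons. The 4sU intron value of Psph rests on unequal intron lengths in the lines.

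Among the transcription factors and feedback genes, 4 of 7 were higher in total RNA and 1 was lower. Atf4 itself was expressed at a lowest, median and highest level of 180, 213 and 229 RPKM in shCTRL and 231, 269 and 441 in shBmal1. Every shBmal1 library lay above every shCTRL library. How many of all genes had such separate ranges was not counted, for this gene or for those below. The difference was 0.41 ± 0.0622 (adjusted p = 7.75e-06), and 0.35 without 46 h. The Atf4 introns showed no such difference in 4sU RNA, with 23.8, 30.1 and 41.4 RPKM in shCTRL and 14.4, 34.1 and 69.2 in shBmal1. The shBmal1 libraries lay on both sides of the shCTRL range, and the estimate was 0.093 ± 0.150 (adjusted p = 0.638). Atf4 in 4sU exons differed by 0.43, as did its introns in total RNA. Its intronic sequence amounts to 916 bases. Behind its 4sU intron values lay 1653 to 2660 reads per library in shCTRL and 1050 to 4142 in shBmal1.

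Trib3, a pseudokinase that binds ATF4 and restrains it, ran from 5.51 to 9.64 RPKM around a median of 8.12 in shCTRL and from 9.56 to 64.2 around 13.7 in shBmal1. The ranges touched only at the lowest shBmal1 library, and shBmal1 was higher at each of the 12 times. The difference was 0.96 ± 0.163 (adjusted p = 2.64e-05), and 0.81 without 46 h. In 4sU introns it was 0.92 ± 0.210 (adjusted p = 0.00204). Chac1, an enzyme that breaks down glutathione, ran from 10.1 to 17 around 13.3 in shCTRL and from 16.4 to 142 around 21.2 in shBmal1. Here too shBmal1 was higher at all 12 times, with a slight overlap of the ranges. The difference of 0.85 ± 0.207 (adjusted p = 0.00122) became 0.63 (adjusted p = 1.88e-08) without 46 h. The Chac1 intron difference was 0.84.

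Ddit4 encodes REDD1, a stress-induced inhibitor of mTORC1. Its levels were 31.6, 37.1 and 41.5 RPKM in shCTRL and 47.4, 63.8 and 85.1 in shBmal1, with no overlap. The difference was 0.81 ± 0.0658 (adjusted p = 1.15e-09) in total RNA and 0.79 in 4sU introns. Atf5, a factor related to ATF4, had 78.8, 95.2 and 115 RPKM in shCTRL and 65.7, 99.6 and 130 in shBmal1. Its ranges overlapped throughout, and the estimates were -0.0045 ± 0.0601 in total RNA (adjusted p = 0.953) and -0.21 in 4sU introns (adjusted p = 0.195). With RPKM as deposited the total RNA estimate of Atf5 was 0.083, and leaving out a time point gave -0.051 (without 32 h) to 0.044 (without 34 h). Cebpg, a dimerisation partner of ATF4, was lower by 0.25 in total RNA, while Nupr1, a small stress-induced chromatin protein, showed 0.079 (adjusted p = 0.222).

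The enzymes leaned the same way, with 7 of 8 higher in total RNA and 1 lower, and 6 higher in 4sU introns. Psph carries out the last step of serine synthesis. Its level was 4.93, 6.09 and 7.26 RPKM in shCTRL against 9.27, 11.7 and 22.1 in shBmal1. No library of one line reached the range of the other. The difference was 0.95 ± 0.0819 (adjusted p = 2.49e-09) in total RNA. In 4sU introns it was 1.11, but the intron length behind the shCTRL 4sU values of Psph was 20159 bases and 12831 elsewhere. In total RNA introns, where the lengths were equal, the Psph difference was 1.02 ± 0.101 (adjusted p = 1.39e-07). The 2 enzymes before it in the pathway showed small differences, 0.12 for Phgdh (adjusted p = 0.0386, and 0.0957 without 46 h) and 0.16 for Psat1.

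Shmt2, which moves a carbon unit from serine to folate in mitochondria, had 40.5, 46.1 and 51.1 RPKM in shCTRL and 54.1, 66.8 and 91.8 in shBmal1. The groups did not overlap, and the difference was 0.64 ± 0.0563 (adjusted p = 3.88e-09). Its 4sU introns overlapped between the lines and differed by 0.44 ± 0.144 (adjusted p = 0.0194). That call was lost when 24, 32, 38 or 40 h was left out, with estimates of 0.36 to 0.43, and with the time point as a block (0.44, adjusted p = 0.0579). Mthfd2, the next enzyme of the mitochondrial folate route, went the other way in total RNA. It had 7.14, 9.46 and 10.1 RPKM in shCTRL and 5.97, 7.05 and 19.9 in shBmal1, and was lower in shBmal1 at all times except 46 h. The difference was -0.28 ± 0.106 (adjusted p = 0.0244), and -0.40 (adjusted p = 1.16e-06) without 46 h. In 4sU introns Mthfd2 was instead higher by 0.34 (adjusted p = 0.0253).

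The proline pathway enzymes Pycr1 and Aldh18a1 were higher by 0.54 and 0.49 in total RNA. Pycr1 ran at 6.06, 8.77 and 10.4 RPKM in shCTRL and 8.98, 12.7 and 16.9 in shBmal1. It was higher in shBmal1 at every time although the ranges overlapped a little, and its 4sU introns, which did not overlap, differed by 0.63 ± 0.0715 (adjusted p = 1.18e-06). Asns, the asparagine synthetase and a classic ATF4 target, had 35.6, 40.5 and 47.6 RPKM in shCTRL and 41.4, 48 and 77.4 in shBmal1. It too was higher at all 12 times with overlapping ranges. The difference was 0.29 ± 0.0578 (adjusted p = 0.000196) in total RNA, 0.23 without 46 h, and 0.50 in 4sU introns.

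The transporters were mixed in total RNA, with 1 of 5 higher, 1 lower and 3 not called. Slc7a1, which carries cationic amino acids, was higher by 0.37, and by 0.30 without 46 h. Slc1a5, which carries neutral amino acids including glutamine, was lower by 0.33 on the log2 scale (-0.33, adjusted p = 7.98e-05). Slc7a5 and Slc3a2 form the exchanger for large neutral amino acids. Their estimates were 0.15 (adjusted p = 0.179) and 0.061 (adjusted p = 0.525) with all times, and 0.052 and -0.018 without 46 h. Slc38a2, another carrier of small neutral amino acids, stood at 0.072 (adjusted p = 0.206).

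Of the 20 tRNA synthetases, 14 were higher in total RNA, 1 was lower and 5 were not called, and 15 were higher in 4sU introns. Aars, the alanyl-tRNA synthetase, had 23.5, 25.8 and 27.2 RPKM in shCTRL and 33.5, 38.2 and 48.2 in shBmal1. The lines did not overlap, and the difference of 0.61 ± 0.0397 (adjusted p = 3.03e-11) was the only one of a synthetase at or above 0.5. In 4sU introns Aars differed by 0.67 ± 0.0804 (adjusted p = 2.35e-06). Cars (0.49), Nars (0.42), Sars (0.39), Iars (0.37), Mars1 (0.28) and Gars (0.27) were also higher in every shBmal1 library than in any shCTRL library. The share of all genes with such separate ranges was not counted. Eprs, the bifunctional enzyme for glutamate and proline, was lower by 0.26 on the log2 scale (-0.26), and its 4sU intron estimate was 0.12 (adjusted p = 0.221). Rars, Dars, Lars, Wars and Farsb were not called in total RNA, with estimates from -0.042 to 0.19. The exon length behind the shCTRL 4sU values of Wars differed from the other groups, 2857 against 2812 bases, and that behind the Farsb introns differed between total and 4sU RNA but not between the lines.

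Values of 4sU exons and total RNA introns come from the same cultures and are no independent support. In 4sU exons 27 genes were higher and 2 lower (27.5% and 26.9% of all genes), and in total RNA introns 29 were higher and none lower (29.3% and 26.8%). In total RNA introns no gene was lower at an unadjusted p under 0.05. The ratio of 4sU exon to total exon within a culture compares newly made RNA with the RNA present. It was higher in shBmal1 for Mthfd2 (0.29), Slc3a2 (0.24), Asns (0.18) and Wars (0.16) and lower for Qars (-0.21), Cars (-0.17) and Nupr1 (-0.14), with the other 33 not called (15.9% of all genes higher, 12.1% lower). For Trib3, Chac1, Ddit4 and Atf4 the ratio differed by 0.019 to 0.044, and none of these was called. Without 26 h or 42 h only 1 of the 40 genes had a lower ratio.

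The 10 genes with a promoter match had a median line difference of 0.33 in total RNA exons and 0.43 in 4sU introns. The 21 genes with an entry and no match had 0.28 and 0.21. The difference between these short lists was not tested.

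In shBmal1 the culture of 46 h stood above the other times for many of these genes, in both of its libraries. This was noticed in the values, and the comparison has 1 culture on its side, so it carries no test. Chac1 in total RNA lay between 16.4 and 26.2 RPKM in the other 11 shBmal1 libraries and at 142 at 46 h. Trib3 lay between 9.56 and 15 and reached 64.2, and Atf4 lay between 231 and 300 and reached 441. In shCTRL at 46 h these genes were at 1.37, 1.19 and 0.99 times the median of their other 11 libraries.

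**Figure D2:**
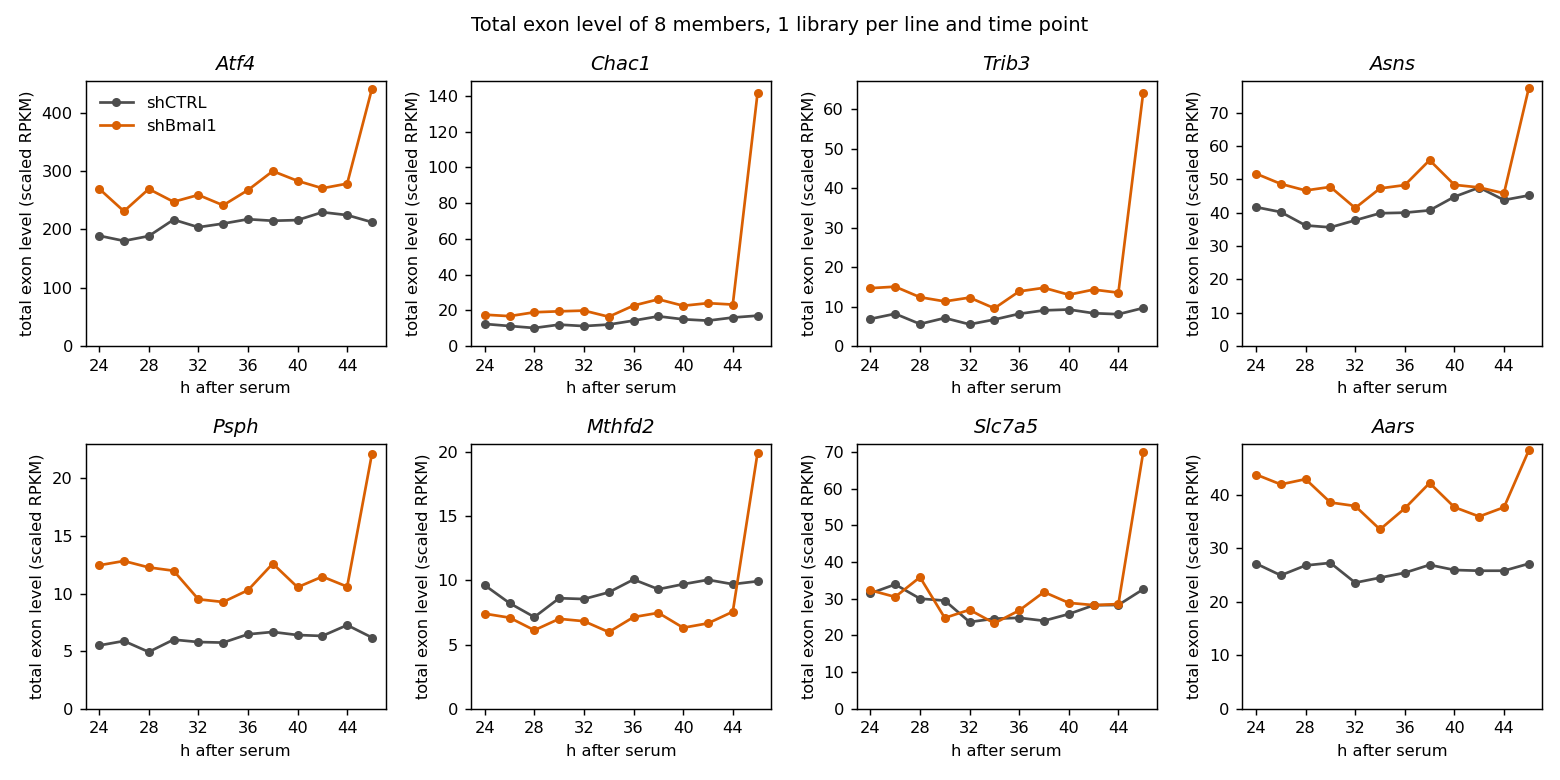
Scaled total RNA exon RPKM of 8 genes against hours after serum, 1 library per point, for shCTRL and shBmal1. The last shBmal1 point, 46 h, stands above the other 11 for each gene shown, from 19.9 RPKM for Mthfd2 to 441 for Atf4, whereas the last shCTRL point lies near its neighbours.

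Counted over all genes, a level at least 1.5 times higher at 46 h than in each of the other 11 libraries of shBmal1 was seen for 7 of the 40 genes in total RNA exons, against 0.303% of all genes tested. Such folds compare scaled levels after the same small additions as above. In 4sU introns 21 of the 40 met it, against 0.839%. In 4sU exons 9 did (0.454%), and in total RNA introns 15 (0.599%). At 46 h in shCTRL none of the 40 genes met it in total RNA exons or 4sU introns (0.00% and 0.00953% of all genes), nor in the other layers. No other library of either line had any of the 40 genes above all others by this margin. With no margin, 27 of the 40 were above the other 11 shBmal1 libraries in total RNA exons (8.59% of all genes) and 34 in 4sU introns (12.1%). The median level at 46 h over the median of the other 11 libraries was 1.36 in total RNA exons and 1.90 in 4sU introns of shBmal1, and 1.08 and 1.07 in shCTRL. Over all genes these medians lay at 0.998 and 1.00 in shBmal1.

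**Figure D3:**
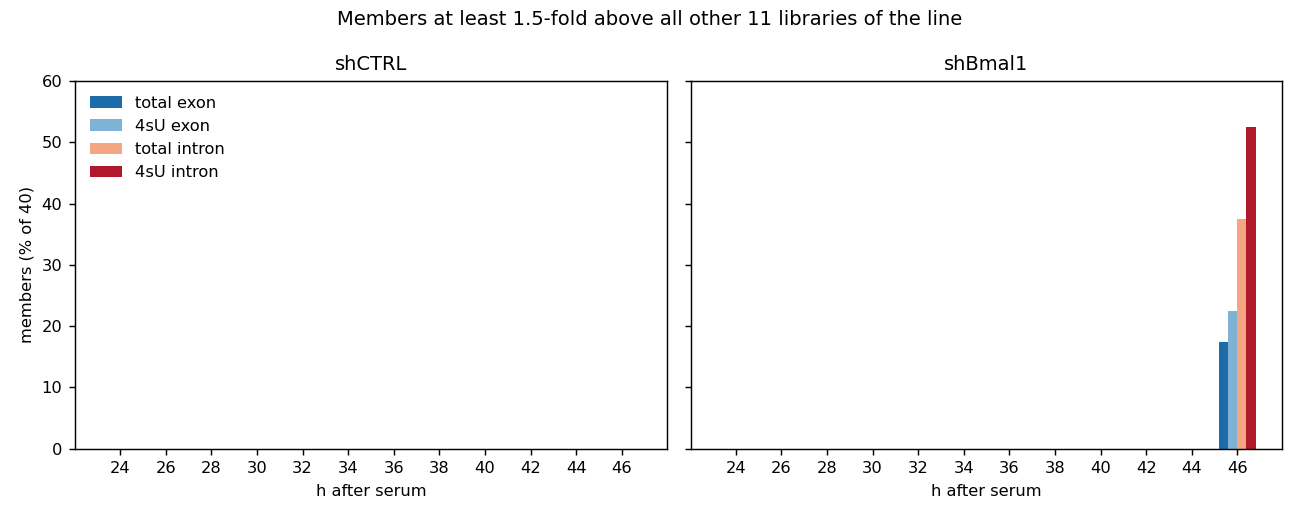
Percent of the 40 genes whose level in a library was at least 1.5 times that in each of the other 11 libraries of its line, against hours after serum, by line and layer. Every library is at 0 except shBmal1 at 46 h, where 7 of 40 (total exon), 9 (4sU exon), 15 (total intron) and 21 (4sU intron) met it.

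Chac1, Mthfd2, Psph, Slc3a2, Slc7a1, Slc7a5 and Trib3 stood out in all 4 layers, and 22 genes in at least 1. The shares of all genes that stood out in all 4 layers or in at least 1 were not counted. Ranked by total RNA exon fold among all 10906 genes, Chac1 came first at 7.14 times and Trib3 next at 4.75, with Mthfd2 at rank 6. The length shift of the 46 h shBmal1 libraries was -0.12 in total RNA exons and -0.18 in total RNA introns, each second lowest of the 12 after 34 h, and -0.10 in 4sU introns. Their summed fibroblast markers (5427 RPKM) and leukocyte markers (16.9), Krt14 (7.83) and Cdh5 (0.315) lay within the range of the other shBmal1 libraries, apart from the leukocyte sum and Cdh5, which were the lowest of the 12. How this culture came to differ was not tested, and it has no second culture to set beside it.

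Among the factors, Atf4 was at 1.64 times its other libraries in total RNA and 2.60 times in 4sU introns. Its 4sU intron level of 69.2 RPKM stood above the 14.4 to 51.3 of the others by less than the 1.5-fold margin. Trib3 and Chac1 introns were at 5.54 and 5.13 times, with 6.42 against 0.891 to 1.54 RPKM and 10.6 against 0.991 to 2.42 RPKM. Atf5 (2.06), Nupr1 (1.93), Cebpg (1.68) and Ddit4 (1.45) had smaller folds in 4sU introns. Ddit4 was the only one of the 7 whose intron level at 46 h did not exceed all other shBmal1 libraries.

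Among the enzymes, 7 of 8 stood out in 4sU introns. Psph was at 3.43 times, Phgdh at 3.07, Mthfd2 at 2.97, Shmt2 at 2.84, Asns at 2.75, Psat1 at 2.60 and Aldh18a1 at 2.27. Pycr1 was at 1.51 times and did not meet the margin. In total RNA of the same culture Mthfd2 reached 19.9 RPKM against 5.97 to 7.55 and Psph 22.1 against 9.27 to 12.8. Psat1, by contrast, was at 76.3 RPKM, inside its range of 62.3 to 91.5, although its introns had stood out.

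Of the 5 transporters, 4 stood out in 4sU introns. Slc7a5 had the largest intron fold of all 40 genes, 6.71, with 5.12 RPKM at 46 h against 0.454 to 0.986 elsewhere. Its partner Slc3a2 was at 1.90 times, Slc7a1 at 3.16 and Slc1a5 at 2.51. In total RNA Slc7a5 reached 69.9 RPKM against 23.3 to 35.9, Slc3a2 106 against 38.9 to 57.7, and Slc7a1 48.9 against 22.8 to 28.4. Slc38a2 was at 1.19 times in 4sU introns and 1.37 in total RNA.

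In 4sU introns 8 of 20 met the margin: Gars (2.19), Nars (1.99), Tars (1.92), Cars (1.91), Eprs (1.90), Yars (1.87), Lars (1.79) and Iars (1.72). Sars (1.89), Aars (1.81), Mars1 (1.62), Wars (1.58), Rars (1.38), Farsb (1.35) and Vars (1.34) were above all other libraries by less. Dars (1.05), Qars (1.04), Kars (1.03), Farsa (1.01) and Hars (0.98) lay inside their range. In total RNA no synthetase met the margin, and the folds ran from 0.81 for Kars, whose 76.5 RPKM was its lowest shBmal1 level, to 1.55 for Eprs. Gars, for example, reached 95.2 RPKM against 69.2 to 78 in the other libraries.

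**Figure D4:**
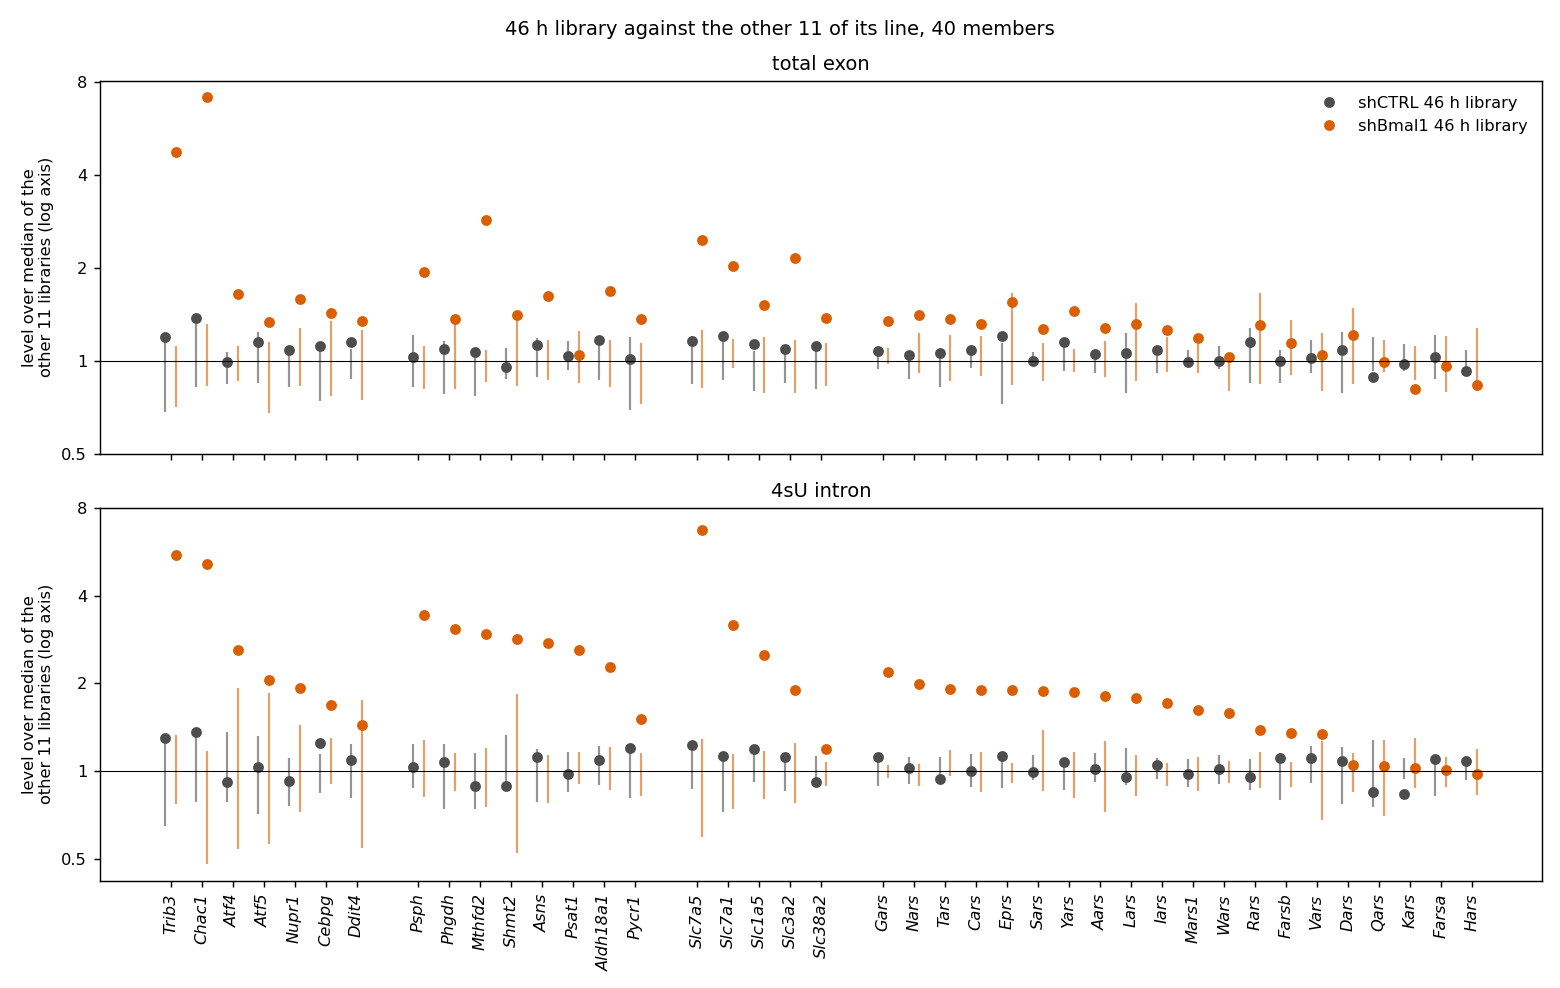
Level at 46 h divided by the median of the other 11 libraries of the same line (log axis) for the 40 genes, in total RNA exons and 4sU introns. Points are shCTRL and shBmal1 and vertical lines the range of the other 11 libraries. In shBmal1 4sU introns Slc7a5 (6.71), Trib3 (5.54) and Chac1 (5.13) are highest and Hars (0.98) lowest, and no shCTRL point exceeds 1.37.

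Genes with and without a promoter match had medians of 1.93 and 1.90 times at 46 h in shBmal1 4sU introns. Neighbouring pathways were counted by the same margin. Of 20 other ATF4-linked genes, 12 met the 1.5-fold margin in shBmal1 4sU introns, with a median of 2.07. Atf3, a stress-induced factor, was at 3.50 times in total RNA, Cth, which makes cysteine, at 2.75 and Gadd45a, a growth arrest gene, at 2.55. Of 17 genes for eIF2, its kinases, phosphatases and exchange factor, only Ppp1r15a met it (2.47 times in 4sU introns and 2.55 in total RNA). Ppp1r15a encodes the stress-induced subunit that directs a phosphatase to eIF2. The medians were 1.01 for that list, 1.03 for 15 mitochondrial synthetases, 0.96 for 3 scaffold proteins of the multi-synthetase complex and 0.90 for 13 genes of amino acid sensing upstream of mTORC1, with no gene meeting the margin in the last 3 lists. The immediate early genes Myc (2.50) and Egr1 (2.56), named because they rank high over all genes, were also high in total RNA of that culture.

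Linear trends from 24 to 46 h were fitted as log2 per 10 h. In shCTRL total RNA, Atf5 (0.24 ± 0.0651, adjusted p = 0.0277) and Nupr1 (0.15 ± 0.0408, adjusted p = 0.0266) rose and Qars fell by 0.15 (adjusted p = 0.0176). These were 2 rising and 1 falling of 40, against 2.46% and 3.12% of all genes. In shBmal1, 6 genes rose and 4 fell (11.5% and 13.5%). Chac1 rose by 0.74, Nupr1 by 0.36, Atf5 by 0.24, Cebpg by 0.23, Atf4 by 0.21 and Slc38a2 by 0.19, while Hars fell by 0.24, Psat1 by 0.20, Kars by 0.17 and Farsa by 0.14. Without 46 h the rising genes of shBmal1 were Nupr1 (0.31) and Chac1 (0.27) only, out of 40 (9.20% of all genes). The falling ones were then 7 (10.9%), with Ddit4 (-0.26), Shmt2 (-0.27) and Phgdh (-0.21) beside those named. In shCTRL without 46 h, 7 genes rose (2.54%) and none fell (2.82%), Qars being at -0.15 (adjusted p = 0.0584). With the 24-h cosine beside the linear term, none rose or fell in shCTRL, and 8 rose and 1 fell in shBmal1. With the length shift of each library as a covariate, 6 rose and 2 fell in shCTRL and 11 rose and 7 fell in shBmal1. With libraries scaled to equal upper quartiles 11 rose in shBmal1. The shares of all genes called with that covariate or that scaling were not counted. Leaving out 26, 28, 40 or 44 h left no rising gene in shCTRL, 42 h left 1, and without 24 h no gene fell and without 34 h 2 did.

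**Figure D5:**
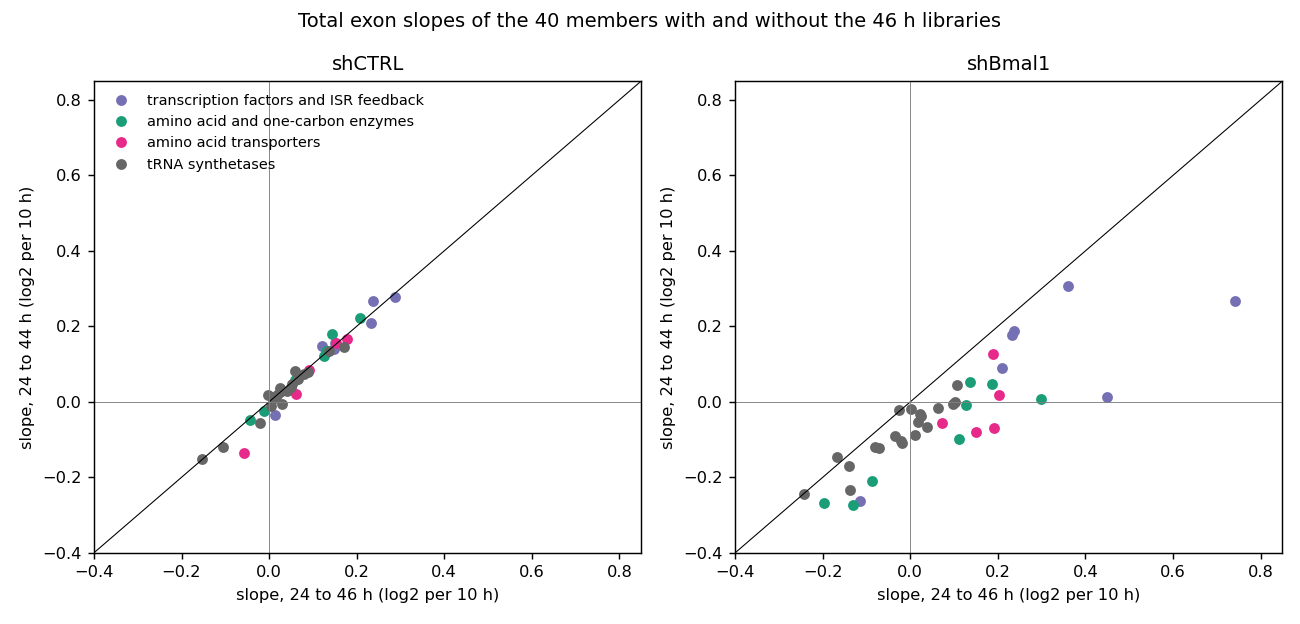
Total RNA slope from 24 to 44 h against the slope from 24 to 46 h (log2 per 10 h) for the 40 genes in each line. Points on the diagonal have the same slope either way. In shBmal1 Chac1 goes from 0.74 to 0.27 and Atf4 from 0.21 to 0.09 without 46 h.

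For Nupr1 the lowest, median and highest levels were 15, 18.2 and 20.3 RPKM in shCTRL and 14.8, 18.2 and 28.5 in shBmal1. The shBmal1 slope exceeded that of shCTRL by 0.21 ± 0.0577 (adjusted p = 0.0314), and by 0.15 (adjusted p = 0.195) without 46 h. Hars was 9.06, 9.82 and 10.9 RPKM in shCTRL and 9.62, 11.5 and 14.9 in shBmal1, where the first 4 libraries were higher than the last 4. Its slopes differed by -0.24 ± 0.0648 (adjusted p = 0.0299), and by -0.26 (adjusted p = 0.0528) without 46 h. These were the 2 slope differences called among 40 genes in the fit with a linear term alone (2.15% of all genes more rising and 2.70% more falling in shBmal1). Without 26, 40 or 42 h none was called, without 24 or 28 h 1 was, and without 46 h the only one was Psat1 (-0.24, adjusted p = 0.0333). None was called with the 24-h cosine beside the linear term. With the length shift as a covariate 5 were, Nupr1, Hars, Psat1, Qars and Rars, and the share of all genes called in that fit was not counted.

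In 4sU introns no gene had a called trend in shCTRL (0.715% of all genes rising, 1.44% falling), with 1 rising and none falling at an unadjusted p under 0.05 by limma. In shBmal1 12 genes rose (4.41%) and none fell (6.59%). Of these, Chac1 (0.77), Slc7a5 (0.65), Atf5 (0.64), Trib3 (0.62), Slc7a1 (0.45) and Nupr1 (0.44) had the largest slopes. Without 46 h only Nupr1 (0.35, adjusted p = 0.0149) was called (1.98% of all genes). Leaving out 26 or 28 h gave 6 rising genes, and 32 h 7.

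Rhythms were sought with a 24-h and a 12-h cosine over this single day. For the 24-h period, 1 of the 40 genes was called in shCTRL total RNA (3.60% of all genes) and 8 in shBmal1 (11.1%). Pycr1 was called in both, with an amplitude (mean to peak, log2) of 0.28 and a peak at 45.0 h in shCTRL (adjusted p = 0.0166) and of 0.26 and 44.8 h in shBmal1 (adjusted p = 0.0141). The larger shBmal1 amplitudes were 0.28 for Nupr1, 0.27 for Atf5, 0.24 for Shmt2, 0.23 for Hars and 0.21 for Psat1. Nupr1 and Atf5 peaked at 41.9 and 43.4 h, and Shmt2, Psat1 and Hars at 25.1, 27.5 and 28.7 h. A 24-h wave and a drift over 22 h overlap: with a linear term added, 4 genes were called in shBmal1 total RNA. Leaving out 34 or 40 h also gave 4 and 36 h gave 5. In shCTRL none was called without 32, 36, 42 or 44 h, 2 without 26 or 34 h, 3 without 30 h and 7 without 46 h. No gene had a called difference in 24-h rhythm between the lines (0.807% of all genes), with 5 at an unadjusted p under 0.05. With each library's length shift as a covariate, an alternative chosen after seeing the data, 7 genes were called in shCTRL and 18 in shBmal1. The difference was then called for 8, among them Rars (adjusted p = 0.00628 by limma) and Psat1 (adjusted p = 0.00943). How many of all genes that fit called was not counted, so these numbers cannot be set against a share.

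In 4sU introns no gene had a called 24-h rhythm in shCTRL (1.12% of all genes, 1 gene at an unadjusted p under 0.05), and 4 did in shBmal1 (5.82%). They were Atf5 (amplitude 0.78, peak 42.5 h, adjusted p = 0.00577), Atf4 (0.73, 43.7 h, adjusted p = 0.0190), Nupr1 (0.41, 41.8 h) and Sars (0.35, 43.4 h). Atf4 and Atf5 are short genes, and their lowest shBmal1 intron levels lay at 26 and 34 h, 17.9 and 14.4 RPKM for Atf4 and 3.37 and 3.56 for Atf5. The 34 h libraries are those with the lowest level of short genes. At 26 h, by contrast, the length shift of shBmal1 4sU introns was -0.0052. With each library's length shift as a covariate, the amplitudes were 0.53 for Atf4 (adjusted p = 0.0205) and 0.62 for Atf5 (adjusted p = 0.000867). Without 46 h, Atf5, Nupr1 and Sars were called in shBmal1 and Atf4 was not (4.22% of all genes), Phgdh was called in shCTRL, and with a linear term added none of the 40 was called. The difference between the lines was called for none (0.286% of all genes), with 7 at an unadjusted p under 0.05. Leaving out 32 h gave 8 genes in shBmal1, 34 h gave 2 and 40 h gave 1.

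A 12-h rhythm was called for none of the 40 genes in either line or layer (0.0183% of all genes in shBmal1 total RNA and 0.00% in the rest). At an unadjusted p under 0.05 limma gave 8 genes in shBmal1 total RNA, 2 in shBmal1 4sU introns and none in shCTRL. After adjustment, leaving out 24, 26 or 32 h gave 2, 4 and 7 genes in shBmal1 total RNA, and leaving out 24 h gave 1 in its 4sU introns.

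The genes around this response differed between the lines as follows, where 34.4% of all genes were called higher and 33.1% lower in shBmal1 total RNA. The 46 h cultures are included throughout, and estimates without them are not given for these lists. In total RNA of the 46 h shBmal1 culture, 15 of 21 other ATF4-linked genes lay above all other libraries of that line (8.59% of all genes). For eIF2, its kinases, phosphatases and exchange factor, 8 of 17 were higher in shBmal1 total RNA and 4 lower, led by Eif2b5 (0.42), a subunit of the exchange factor, Dnajc3 (-0.41), an inhibitor of eIF2 kinases, and Ppp1r15a (0.37). Of 21 other ATF4-linked genes, 14 were higher and 4 lower. Sesn2, a stress-induced inhibitor of mTORC1, differed by 1.09 and Gadd45a by -0.78. Bcat1, a transaminase of branched-chain amino acids, gave 2.46, but its exon length was 7812 bases in shCTRL and 2535 in shBmal1, so that value is not a difference in RNA alone. Mitochondrial synthetases were higher in 9 of 16 and lower in none, led by Lars2 (1.02), Ears2 (0.53, with different exon lengths in the lines) and Nars2 (0.33). That lean was absent from 4sU exons, where 2 of the same 16 were higher and 2 lower (27.5% and 26.9% of all genes). Their 4sU exon estimates, Lars2 included, ran from -0.21 to 0.26 around a median of -0.013. All 3 scaffold proteins of the multi-synthetase complex were higher, Eef1e1 by 0.53, Aimp2 by 0.23 and Aimp1 by 0.18. In amino acid sensing upstream of mTORC1, 3 of 13 were higher and 7 lower, with Sesn3 at -0.51, Tsc1, a brake on mTORC1, at -0.49 and Sesn1 at -0.47. In 4sU introns, with 22.1% of all genes higher and 22.3% lower, the counts higher and lower were 8 and 3 of 17, 8 and 1 of 20, 3 and 2 of 15, 1 and 0 of 3, and 2 and 5 of 13 for these lists in the same order.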

How the data were processed

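Total and 4sU-labelled RNA were sequenced from the same cultures. The authors deposited RPKM for exons and introns. The submitters' processing notes name Trim Galore, HOMER 4.11.1 and the build mm10 (GRCm38.p6); which aligner was used is not given in the sources here. Spike-ins were not analysed here. Per the labels' protocols, the 30 ug taken for pull-down was roughly 50% of a shCTRL sample and 60 to 70% of a shBmal1 sample.

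Read totals and feature lengths were recovered from the deposited RPKM, whose low values are whole multiples of 1 read. Intron totals equalled exon totals in all groups but shBmal1 4sU, where they were 1.35 to 1.39 times larger, so each layer was rescaled by median ratios to its geometric mean library. Genes averaging at least 0.5 in exons or 0.1 in introns were kept. Log2 values (pseudocount 0.1 or 0.02) were fitted with limma 3.58.1 in R 4.3.3, with a mean and 24-h and 12-h cosine and sine terms per line, or a linear term for trends. Benjamini-Hochberg adjustment ran over all genes of a layer. Scripts were tested on simulated data. Values in full are given for genes called with an absolute log2 difference of at least 0.5 and for Atf4, Atf5, Asns, Chac1 and Trib3, with at most 6 genes per trend or rhythm and 3 per neighbouring list, apart from genes named at 46 h, which were chosen after their values were seen. The members and lists were chosen with earlier results of these data known. Alternatives were other scalings, pseudocounts and filters, other time terms, a block on time and leaving out each time point.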

Additional observations from a re-analysis of the deposited data

Results flagged for a closer look

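The difference between the lines in the total RNA slope passed the test for 2 genes of the set when fitted with a linear term alone. For Nupr1 the shBmal1 slope was higher by 0.21 log2 per 10 h, and for Hars it differed by -0.24. Without 46 h the adjusted p from limma was 0.195 for Nupr1 and 0.0528 for Hars. No slope difference was called without 26, 40 or 42 h, nor with the 24-h cosine beside the linear term.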

How the results depend on the processing

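Another pseudocount, no filter on low values and limma without its trend and robust options kept the direction and the side of the threshold of every result recomputed. With RPKM as deposited, 2 genes were lower in total exons, Atf5 was at 0.083, 1 rose and 2 fell in shCTRL total exons and 3 had a 24-h rhythm there. In 4sU introns 5 were higher and 23 lower, 1 and 4 by at least 0.5, Atf4 was at -0.38, Shmt2 at -0.034 and 7 rose in shBmal1, and 11 were higher by at least 0.5 in 4sU exons. With equal upper quartiles, 2 fell and 3 had a 24-h rhythm in shCTRL total exons, and 11 rose in shBmal1. With the 24-h cosine beside the linear term, 0 rose and 0 fell in shCTRL total exons, 1 fell in shBmal1 and 0 slopes differed. With the linear term beside the cosines, 4 had a 24-h rhythm in shBmal1 total exons and 0 in 4sU introns. Without time terms 1 gene had a lower ratio, as with the time point as replicate block, where Shmt2 in 4sU introns was at 0.44 (adjusted p = 0.0579 by limma). That block is only a shared time: same-time deviations of the lines correlated at -0.18 to 0.42 in total exons (median 0.24, 5 of 12 times best with their own) and -0.15 to 0.47 in 4sU introns (median 0.13, 2 of 12).

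With each library's length shift as a covariate, chosen after seeing the data, 6 rose and 2 fell in shCTRL total exons, 11 rose and 7 fell in shBmal1 and 5 slopes differed. A 24-h rhythm was then called for 7 in shCTRL and 18 in shBmal1, with 8 differences between them. The shares of all genes called with this covariate were not counted. In 4sU introns 1 was lower, 1 rose in shCTRL, 1 fell in shBmal1 and 1 had a 24-h rhythm in shCTRL, and 4 were lower in 4sU exons.

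Leaving out each time point in turn gave, in total exons, 0 to 7 rising and 0 to 2 falling in shCTRL, 2 to 9 rising and 3 to 7 falling in shBmal1, 0 to 2 slope differences, a 24-h rhythm for 0 to 7 in shCTRL and 4 to 12 in shBmal1, a 12-h rhythm for 0 to 7 in shBmal1 and -0.051 (without 32 h) to 0.044 (without 34 h) for Atf5. In 4sU introns it gave 0 to 3 lower, 0.35 to 0.52 for Shmt2, 0 to 2 rising in shCTRL, 1 to 15 rising in shBmal1, and rhythms of 24 h for 0 to 1 in shCTRL and 1 to 8 in shBmal1, and of 12 h for 0 to 1 in shBmal1. Lower were 0 to 3 in total introns and 1 to 4 in the ratio. The cause of each change was not tested. The lowest read number of a gene in a library was 442 in total exons, 390 in 4sU exons, 96 in 4sU introns (Chac1) and 56 in total introns (Trib3).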
